A study of Mus musculus with 12 samples.

Results

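The Foxp3 gene and its surroundings on the X chromosome were followed in ATAC-seq libraries of mouse regulatory T cells (Treg) with and without the zinc finger protein Ikaros, encoded by Ikzf1. ATAC-seq counts the insertions of Tn5 transposase into accessible DNA. The regions were chosen by position, as those that overlap the Foxp3 gene extended by 20 kb on each side (chrX:7136802-7192369 of mm9, 55.6 kb). There are 13 such regions among the 118680 of the deposited table, 6 over the gene and 7 in the flanks, and they cover 13.13% of that stretch. Both genotypes carried a knock-in that expresses YFP and Cre from the Foxp3 locus. WT Treg came from Foxp3-YFP-Cre mice, and Ikzf1-cko Treg from Ikzf1-fl-Foxp3-YFP-Cre mice, in which Cre recombines the floxed Ikzf1 gene in cells that express Foxp3. CD4+YFP+ cells were sorted, so that the gate reads the Foxp3 locus itself, and in every group only cells with an active Foxp3 allele could enter. The labels name spleen as the source and give neither the age nor the sex of the mice. In each genotype, 3 libraries were made directly ex vivo and 3 after 4 hr on plate-bound anti-CD3 and anti-CD28, with 100000 cells per library and 12 libraries in all. The methods speak of 3 biological replicates for each cell type. Nothing in the labels says that replicates came from different mice, and p-values measure only the spread between these libraries.

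Foxp3 is the lineage factor of Treg. Its transcription is known to be controlled from the promoter and from conserved non-coding sequences (CNS) within the gene. CNS1 responds to TGF-beta signals and serves Treg induced in the periphery, CNS2 is a CpG-rich element whose demethylation keeps Foxp3 expressed through cell division, and CNS3 acts early, when Foxp3 is first induced. Further elements lie upstream of the promoter, within the neighbouring gene Ppp1r3f.

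The table holds a region at the start site of Foxp3 (OCR_116779, 7156429 to 7156941), which spans bases -373 to 139 relative to the start and is called the promoter here. CNS2 corresponds to the intronic region OCR_116780 (7160811 to 7161592), which holds 14 CpG in 782 bases and begins 4009 bases after the start. CNS3 lies within OCR_116782 (7163411 to 7163933), which covers the first coding exon (7163435 to 7163687) and the start of the intron after it. That region also lies over the annotated start of a shorter Foxp3 transcript (7163435). No region lies in the 3869 bases between the promoter and CNS2, so CNS1 has no value here. Of the other gene-body regions, OCR_116781 (7161678 to 7161938) is intronic and close behind CNS2, whereas OCR_116783 and OCR_116784 lie over exons further downstream. Of the 6 upstream regions, 4 are in introns of Ppp1r3f, 1 lies over a start site of a short Ppp1r3f transcript (OCR_116777, 7149506 to 7150001), and the nearest to Foxp3 lies over the main Ppp1r3f starts and that of the non-coding 4930524L23Rik (OCR_116778, 7151119 to 7152152). The downstream region OCR_116785 (7182337 to 7183353) lies over the start of Ccdc22 and over that of a long Ppp1r3f transcript. Upstream and downstream regions are named below by the distance of their middle from the Foxp3 start. The long Ppp1r3f transcript, on the other strand, spans all of Foxp3, and an exon of 4930524L23Rik covers the promoter region, so that a region here cannot be assigned to Foxp3 alone by position.

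The sequence of the promoter, CNS2 and CNS3, the named elements of the gene, is shown on the plus strand, the coding strand of Foxp3, from the mm9 reference genome. Capitals in the promoter and CNS3 mark GGGAA or its reverse complement TTCCC, the core of Ikaros-family sites. In CNS2 they mark CpG. The promoter stretch (chrX:7156502-7156801) ends at the base before the start site and falls within an exon of 4930524L23Rik. The CNS2 stretch (chrX:7161038-7161337) is the 300-base window of that region with the most CpG, 11 in number. The CNS3 stretch (chrX:7163688-7163933) is the intronic part behind the first coding exon.
promoter: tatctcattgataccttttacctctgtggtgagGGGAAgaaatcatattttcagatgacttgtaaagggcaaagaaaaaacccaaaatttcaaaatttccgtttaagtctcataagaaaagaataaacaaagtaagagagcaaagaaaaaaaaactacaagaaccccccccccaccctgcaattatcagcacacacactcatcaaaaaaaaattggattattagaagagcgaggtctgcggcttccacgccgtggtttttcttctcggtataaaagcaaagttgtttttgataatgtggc
CNS2: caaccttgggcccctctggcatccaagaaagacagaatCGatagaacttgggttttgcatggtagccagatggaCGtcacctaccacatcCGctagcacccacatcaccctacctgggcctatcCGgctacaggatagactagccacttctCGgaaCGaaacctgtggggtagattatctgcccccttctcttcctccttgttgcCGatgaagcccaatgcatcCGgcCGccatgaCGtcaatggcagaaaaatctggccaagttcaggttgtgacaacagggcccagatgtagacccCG
CNS3: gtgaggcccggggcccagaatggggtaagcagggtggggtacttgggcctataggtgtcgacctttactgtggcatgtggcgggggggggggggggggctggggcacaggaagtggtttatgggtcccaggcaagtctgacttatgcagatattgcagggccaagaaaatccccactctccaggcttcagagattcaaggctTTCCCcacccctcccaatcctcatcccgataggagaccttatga

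The promoter stretch holds 1 GGGAA match and the CNS3 intron 1. Matches were counted on both strands in the 300 bases around the middle of each region. GGGAA is common: 59.3% of the windows of all tested regions hold it, the window of the promoter holds 1 and those of CNS2 and CNS3 hold 0. The window of CNS2 holds 1 TGACGTCA, the cAMP response element, which only 0.891% of tested windows hold, and which stands at bases 234 to 241 of the printed stretch. It also holds 1 match to the STAT core TTCNNNGAA (bases 148 to 156), found in 8.32% of tested windows. CNS3 and the region at 5.0 kb hold 1 TTCNNNGAA each. TGACTCA, the AP-1 site, occurs in the windows at -14.0, -13.2 and 26.0 kb and in 10.6% of tested windows. The forkhead core GTAAACA (3.77% of tested windows) and TTCCGGAA (0.349%), a pair of ETS cores, occur in no window of the locus, and the RUNX core TGTGGTT (9.7%) only in that at -8.7 kb. These letters can overlap, as GGGAA and TTCNNNGAA share GAA. The window of CNS2 holds 11 CpG, more than 76% of tested windows, and that at -5.2 kb 20, more than 84.5%.

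Levels are given in the deposited FPKM, the count per length of region and per total count of the library. Total counts ranged from 5197669 to 8596567 in WT ex vivo libraries, from 11698967 to 15355521 in Ikzf1-cko ex vivo, from 4808916 to 6047073 in WT stimulated and from 9221901 to 11465957 in Ikzf1-cko stimulated. Every Ikzf1-cko library was deeper than every WT library, and depth cannot be told apart from genotype. The WT stimulated libraries stood apart in their spread of signal: the 6996 strongest tested regions held 31.2 to 33.1% of their reads, compared with 38.4 to 43.7% in the other 9 libraries. Chromosome X held 1.35 to 1.4% of their reads, compared with 1.73 to 1.95% elsewhere. Regions over the starts of the Y-linked genes Ddx3y, Uty and Eif2s3y had reads in all 12 libraries. The starts of Cd3e, Cd4, Il2ra and Ctla4 were open in all libraries (12.4 to 65.6 FPKM), whereas the table holds no region at the starts of Cd79a, Ms4a1, Lyz2, Csf1r, Itgam, Ncr1 and Hbb-b1. Cd8a, Cd8b1 and Klrb1c had regions of 1.67 to 14.7 FPKM. No region lies over the last exon of Ikzf1, and the genotype labels could not be checked from these files.

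**Figure D1:**
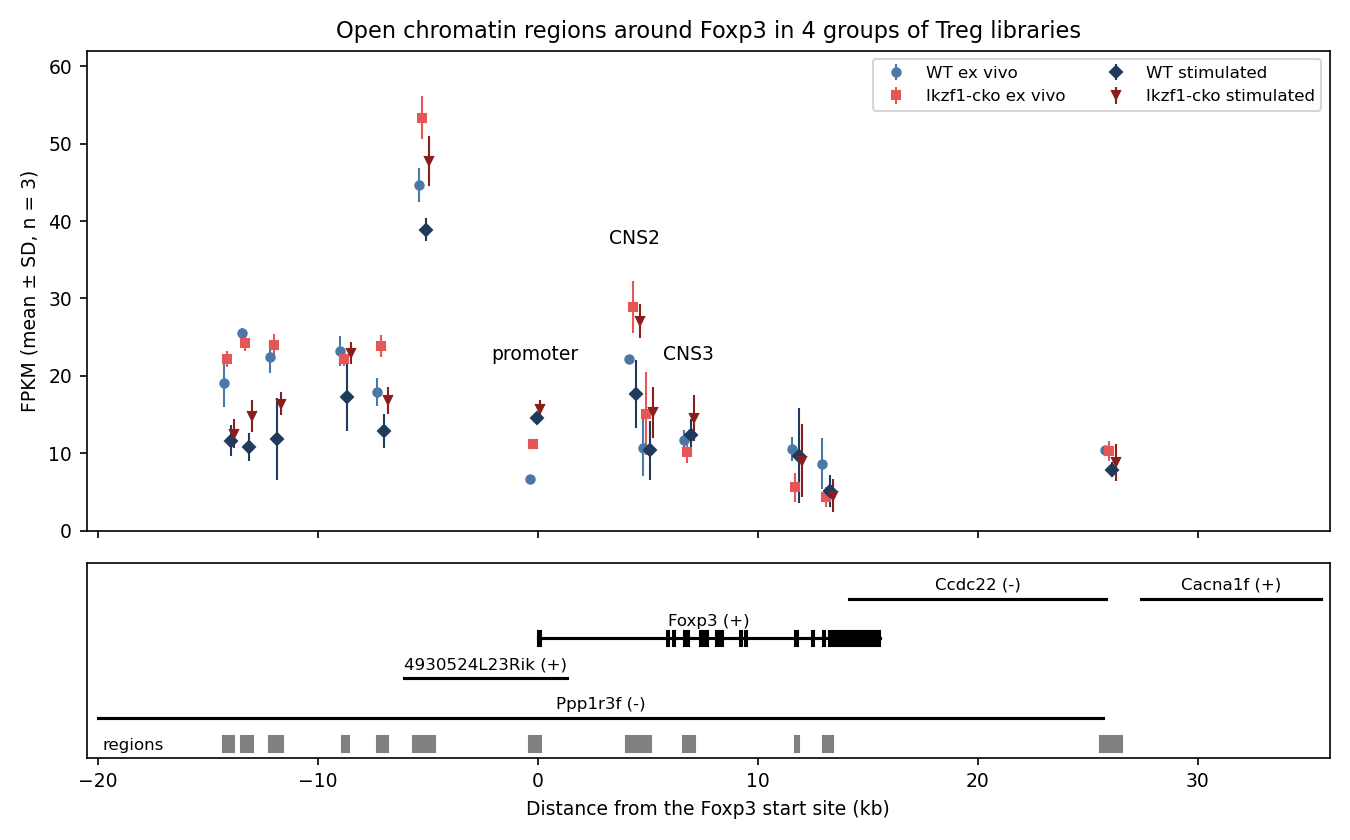
Mean FPKM (± SD, n = 3) of the 13 regions in each of the 4 groups, plotted against the distance of the region's middle from the Foxp3 start site in kb (points of a region are spread sideways by group), above the genes with their strand (Ppp1r3f and Cacna1f extend beyond the plot; boxes are exons of Foxp3) and the regions as grey boxes. The strongest region is at -5.2 kb, and the promoter is lowest in WT ex vivo Treg.

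Differences between groups were tested on the counts by the quasi-likelihood method of edgeR. Each library was scaled by its total, and p-values were adjusted after Benjamini and Hochberg over the 69957 regions with 3.6 CPM or more in 3 or more libraries. "Rose" and "fell" are used for an adjusted p under 0.05, and "called" for regions that also had an absolute log2 fold change over 1. Of the 13 regions, 11 were tested. The 2 exonic regions were left out for low counts (3 to 28 and 7 to 32 reads), and had 2.96 to 14.9 FPKM (OCR_116783) and 3.06 to 11.5 FPKM (OCR_116784) across libraries. The promoter reached 3.6 CPM in 1 WT ex vivo library and in all 9 other libraries, and the region at 5.0 kb in 6 of 12, while the other 9 tested regions reached it in all 12. A region open in more cells and a region more open in each cell cannot be told apart in these bulk libraries.

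Of the 11 tested regions, only the promoter rose with stimulation in both genotypes, and it also rose ex vivo without Ikaros. It was at 6.38, 6.46 and 7.26 FPKM in WT ex vivo libraries and at 11.9, 10.8 and 10.8 FPKM in Ikzf1-cko ex vivo libraries. After stimulation it was at 13.9, 15.3 and 14.6 FPKM in WT and at 15.0, 15.1 and 17.0 FPKM in Ikzf1-cko libraries. The ex vivo groups did not overlap with each other or with either stimulated group, whereas the stimulated groups did overlap. Groups without overlap were common, here and for the regions below. Between genotypes, 35.9% of all tested regions had none ex vivo and 57.2% among stimulated Treg. With stimulation it was 54% in WT and 37.8% in Ikzf1-cko Treg. Ex vivo, the promoter rose without Ikaros (6.7 ± 0.49 FPKM in WT and 11.2 ± 0.66 FPKM in Ikzf1-cko libraries, SD, n = 3, log2 fold change 0.73, SE 0.18, adjusted p = 0.0051, edgeR), which is a fold of 1.66. In WT Treg it rose with stimulation to 14.6 ± 0.73 FPKM and was called (log2 fold change 1.11, SE 0.2, adjusted p = 6.4e-05, edgeR). In Ikzf1-cko Treg it rose with stimulation by 0.49 on the log2 scale (SE 0.15, adjusted p = 0.015, edgeR) to 15.7 ± 1.1 FPKM. Between the stimulated genotypes the log2 fold change was 0.11 (95% interval -0.21 to 0.44, adjusted p = 0.6, edgeR). The order of the means was thus WT ex vivo, Ikzf1-cko ex vivo, WT stimulated and Ikzf1-cko stimulated, with the last pair not separated, and Ikzf1-cko ex vivo and WT stimulated Treg were not compared by a test.

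The promoter's place among the tested regions of the same group moved in the same order. Its mean FPKM exceeded that of 28% of tested regions in WT ex vivo, 57.6% in Ikzf1-cko ex vivo, 67.9% in WT stimulated and 71.4% in Ikzf1-cko stimulated Treg. The smaller stimulation response of Ikzf1-cko Treg was not shown to differ from that of WT Treg, since the interaction was -0.62 (SE 0.25, unadjusted p = 0.019, adjusted p = 0.12, edgeR). With chromosome X totals as the scaling it was -0.91 (adjusted p = 0.029, edgeR), and over 19 alternatives the adjusted p ranged from 0.029 to 0.2. The rise in Ikzf1-cko Treg was lost without Ikzf1-cko ex vivo replicate 2 (adjusted p = 0.061) or Ikzf1-cko stimulated replicate 3 (adjusted p = 0.076), and with DESeq2 (adjusted p = 0.14).

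**Figure D2:**
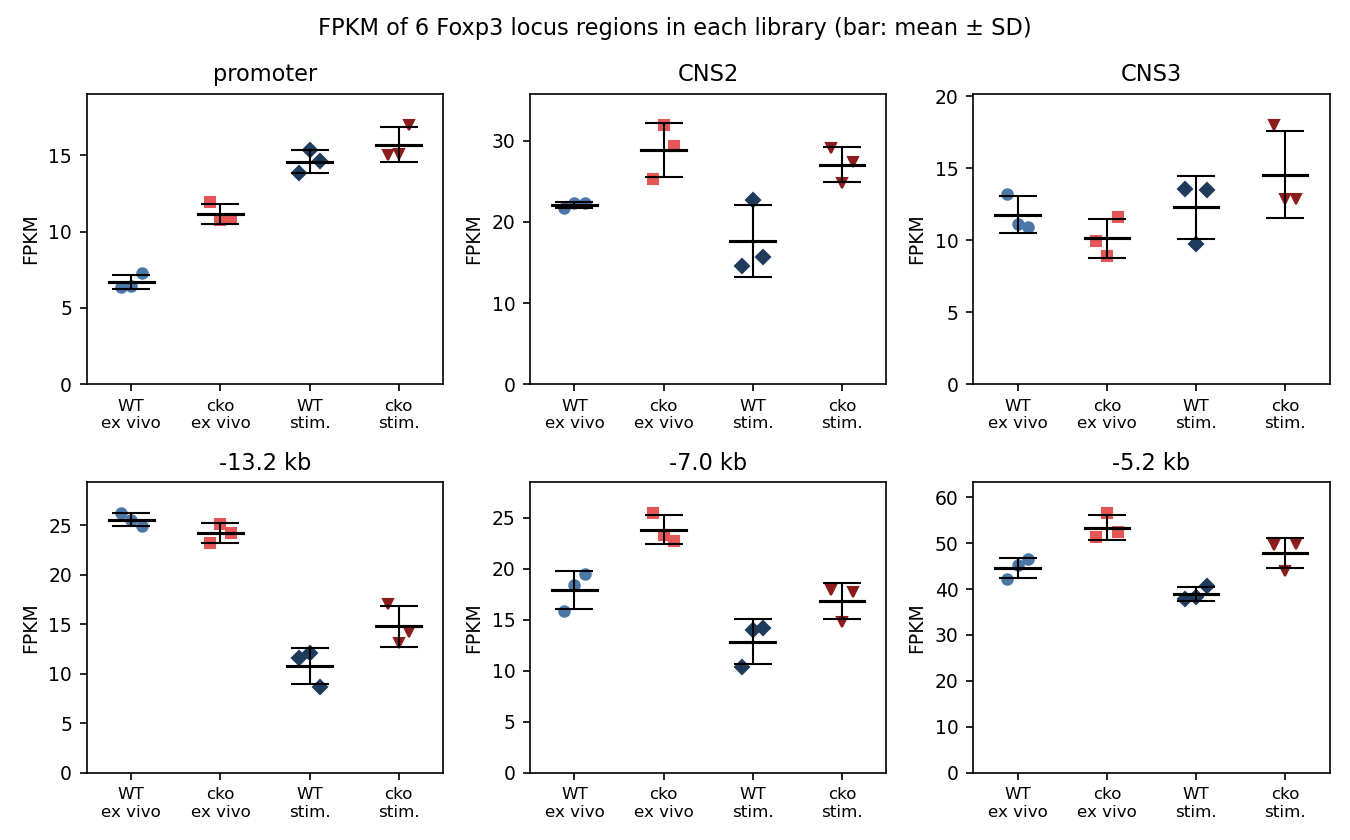
FPKM of the promoter, CNS2, CNS3 and the regions at -13.2, -7.0 and -5.2 kb in each of the 12 libraries (points), by group (cko, Ikzf1-cko; stim., stimulated), with the mean ± SD as bars; each panel has its own axis from 0. The promoter is lowest in the 3 WT ex vivo libraries (6.38 to 7.26), and the -13.2 kb region is below 18 in the 6 stimulated libraries and above 23 in the 6 ex vivo libraries.

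CNS2, the strongest region over the gene, was higher without Ikaros in both states. It was at 21.6, 22.4 and 22.3 FPKM in WT ex vivo and at 25.3, 32.0 and 29.3 FPKM in Ikzf1-cko ex vivo libraries. After stimulation it was at 14.6, 22.7 and 15.7 FPKM in WT and at 29.1, 24.7 and 27.3 FPKM in Ikzf1-cko libraries. Every Ikzf1-cko library was above every WT library, and WT stimulated replicate 2 lay with the WT ex vivo libraries. CNS2 rose ex vivo, with 22.1 ± 0.4 FPKM in WT and 28.9 ± 3.3 FPKM in Ikzf1-cko Treg (SD over 3 libraries each, log2 fold change 0.38, SE 0.12, adjusted p = 0.027, edgeR). Among stimulated Treg it was higher without Ikaros by a log2 fold change of 0.62 (SE 0.14, adjusted p = 0.00054, edgeR), at 27.1 ± 2.2 FPKM compared with 17.7 ± 4.4 FPKM in WT (SD, n = 3). Neither passed the fold threshold of 1. Stimulation gave a log2 fold change of -0.33 in WT (adjusted p = 0.071) and of -0.091 in Ikzf1-cko Treg (adjusted p = 0.59, edgeR), and the interaction was 0.24 (95% interval -0.13 to 0.61, adjusted p = 0.45).

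The scaling bears on the values of CNS2. With chromosome X totals, the difference between stimulated genotypes was 0.23 (adjusted p = 0.17) and that ex vivo 0.28 (adjusted p = 0.097), and with loess normalization against abundance they were 0.38 (adjusted p = 0.032) and 0.33 (adjusted p = 0.051, edgeR). The ex vivo rise was also lost in limma on log2(FPKM + 1), without any 1 of the WT ex vivo libraries (adjusted p = 0.062 to 0.083) and without Ikzf1-cko ex vivo replicate 2 (adjusted p = 0.15). Without WT stimulated replicate 2, CNS2 fell with stimulation in WT Treg (log2 fold change -0.55, adjusted p = 0.0055, edgeR). Close behind CNS2, the weak region at 5.0 kb (6.37 to 18.7 FPKM across libraries) passed the test in no comparison, with wide intervals such as -0.1 to 1.16 between stimulated genotypes. After loess normalization it was called there (log2 fold change 1.01, adjusted p = 0.018, edgeR).

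CNS3 was at 13.2, 11.2 and 10.9 FPKM in WT ex vivo, at 9.96, 8.89 and 11.6 FPKM in Ikzf1-cko ex vivo, at 13.6, 9.78 and 13.5 FPKM in WT stimulated and at 18.0, 12.8 and 12.8 FPKM in Ikzf1-cko stimulated libraries. The groups overlapped except for the 2 Ikzf1-cko groups. With stimulation CNS3 rose in Ikzf1-cko Treg (log2 fold change 0.52, SE 0.17, adjusted p = 0.025, edgeR), whereas in WT Treg the value was 0.083 (95% interval -0.33 to 0.5). The difference between these responses was 0.44 (adjusted p = 0.32), so that they were not shown to differ. This rise in Ikzf1-cko Treg was lost without Ikzf1-cko stimulated replicate 1, the library at 18.0 FPKM (adjusted p = 0.21), without Ikzf1-cko ex vivo replicate 1 (adjusted p = 0.072) or 2 (adjusted p = 0.12), with DESeq2 (adjusted p = 0.14) and with limma (adjusted p = 0.067). Genotype moved CNS3 past the test in neither state (log2 fold change -0.2 ex vivo and 0.24 stimulated).

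Upstream of Foxp3, the 3 regions furthest from the gene, all in introns of Ppp1r3f, fell with stimulation in both genotypes. The region at -13.2 kb (OCR_116774, 7143336 to 7143863) was at 26.2, 25.6 and 24.9 FPKM in WT ex vivo and at 23.2, 25.2 and 24.3 FPKM in Ikzf1-cko ex vivo libraries. After stimulation it was at 11.6, 12.1 and 8.66 FPKM in WT and at 17.1, 13.1 and 14.2 FPKM in Ikzf1-cko libraries. It fell in WT Treg and was called (log2 fold change -1.23, SE 0.17, adjusted p = 1.5e-06, edgeR), and it fell in Ikzf1-cko Treg (log2 fold change -0.71, SE 0.13, adjusted p = 0.00017, edgeR). Its mean exceeded that of 84.2% of tested regions in WT ex vivo and of 40.3% in WT stimulated Treg. The interaction was 0.51 (unadjusted p = 0.027, adjusted p = 0.15, edgeR). Among stimulated Treg the region was higher without Ikaros (log2 fold change 0.44, adjusted p = 0.041, edgeR), which was lost with loess normalization, with chromosome X totals (0.05, adjusted p = 0.85), with the compared libraries alone and without either of WT stimulated replicates 1 and 3 or Ikzf1-cko stimulated replicates 1 and 3 (adjusted p = 0.057 to 0.19).

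Its neighbours at -14.0 and -11.9 kb moved alike. In WT Treg the log2 fold change with stimulation was -0.72 at -14.0 kb (adjusted p = 0.0023) and -0.91 at -11.9 kb (adjusted p = 0.00028), and in Ikzf1-cko Treg -0.82 (adjusted p = 0.00012) and -0.54 (adjusted p = 0.0071, edgeR). The fall at -14.0 kb in WT Treg was lost with chromosome X totals (-0.35, adjusted p = 0.13, edgeR), and that at -11.9 kb in Ikzf1-cko Treg was lost in limma (-0.52, adjusted p = 0.084). At -11.9 kb, WT stimulated replicate 2 was at 18.0 FPKM and the other two WT stimulated libraries at 9.54 and 8.11 FPKM, and without that library the fall was -1.33 and was called. The interaction at -11.9 kb was 0.38 (adjusted p = 0.34, edgeR), and without the same library it passed the test (0.8, adjusted p = 0.026, edgeR). Among stimulated Treg the region at -11.9 kb was higher without Ikaros (log2 fold change 0.46, adjusted p = 0.04, edgeR), which was lost with loess normalization (0.33, adjusted p = 0.18), with chromosome X totals (0.076, adjusted p = 0.75) and without any 1 of WT stimulated replicates 1 and 3 and Ikzf1-cko stimulated replicates 2 and 3 (adjusted p = 0.067 to 0.26). The region at -8.7 kb passed the test in no comparison, with a log2 fold change with stimulation of -0.4 in WT (adjusted p = 0.08) and 0.057 in Ikzf1-cko Treg and one of 0.4 between stimulated genotypes (adjusted p = 0.062, edgeR). The last of these passed with TMM (0.48, adjusted p = 0.029), in limma (0.42, adjusted p = 0.021) and without WT stimulated replicate 2 (0.58, adjusted p = 0.02), and the fall in WT Treg in limma (-0.44, adjusted p = 0.018) and without that library (-0.58, adjusted p = 0.027). Over 12 libraries, log2 CPM at -13.2 kb correlated with that at -14.0 kb (Pearson r = 0.906) and at -11.9 kb (0.881) and ran against that of the promoter (-0.774), whereas the promoter and CNS2 had r = 0.00364. These libraries share depth and composition within groups, and the correlations are descriptions.

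Nearer to Foxp3, the upstream start-site regions of Ppp1r3f were higher without Ikaros ex vivo. The region at -7.0 kb was at 15.9, 18.4 and 19.5 FPKM in WT ex vivo and at 25.5, 23.3 and 22.8 FPKM in Ikzf1-cko ex vivo libraries, which did not overlap. It rose there (log2 fold change 0.4, SE 0.14, adjusted p = 0.044, edgeR) and fell with stimulation in WT (-0.51, adjusted p = 0.021) and in Ikzf1-cko Treg (-0.5, adjusted p = 0.0066). The ex vivo rise passed the test in 11 of 21 alternatives. It was lost with chromosome X totals (0.3, adjusted p = 0.12), with DESeq2 (adjusted p = 0.069), in limma (adjusted p = 0.056), without the filter on low counts (adjusted p = 0.056), with a replicate block (adjusted p = 0.052) and without any 1 of the 3 WT ex vivo libraries or of Ikzf1-cko ex vivo replicates 1 and 2 (adjusted p = 0.053 to 0.16). The fall in WT Treg was lost with loess normalization (-0.36, adjusted p = 0.13), with chromosome X totals (-0.14, adjusted p = 0.53) and without WT ex vivo replicate 2 or 3 or WT stimulated replicate 1 (adjusted p = 0.051 to 0.16), whereas the fall in Ikzf1-cko Treg passed in all 22 alternatives. The region at -5.2 kb, the strongest of the locus, was at 42.2, 45.2 and 46.5 FPKM in WT ex vivo, 51.3, 56.5 and 52.3 FPKM in Ikzf1-cko ex vivo, 37.7, 38.3 and 40.6 FPKM in WT stimulated and 49.5, 44.0 and 49.8 FPKM in Ikzf1-cko stimulated libraries. Between 4.73 and 5.81% of tested regions had a higher mean in each group. It rose without Ikaros ex vivo (log2 fold change 0.25, SE 0.078, adjusted p = 0.021, edgeR) and was higher among stimulated Treg (0.3, SE 0.085, adjusted p = 0.0042, edgeR). The second value turned to -0.058 with loess normalization and to -0.088 with chromosome X totals, and the first was 0.12 (adjusted p = 0.26) and 0.16 (adjusted p = 0.12) there. The ex vivo rise was lost too without WT ex vivo replicate 1 or 2 or Ikzf1-cko ex vivo replicate 2 (adjusted p = 0.06 to 0.12).

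The region at 26.0 kb, over the starts of Ccdc22 and of the long Ppp1r3f transcript, passed the test in none of the comparisons. It was at 10.6, 10.8 and 9.95 FPKM in WT ex vivo, 11.3, 10.9 and 8.82 FPKM in Ikzf1-cko ex vivo, 6.83, 8.26 and 8.59 FPKM in WT stimulated and 7.36, 11.5 and 7.55 FPKM in Ikzf1-cko stimulated libraries. The log2 fold change between genotypes ex vivo was -0.0068 (95% interval -0.31 to 0.3), and that with stimulation was -0.41 in WT (adjusted p = 0.073) and -0.24 in Ikzf1-cko Treg (adjusted p = 0.25, edgeR). Without Ikzf1-cko stimulated replicate 2, the library at 11.5 FPKM, it fell in Ikzf1-cko Treg (-0.48, adjusted p = 0.034, edgeR).

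**Figure D3:**
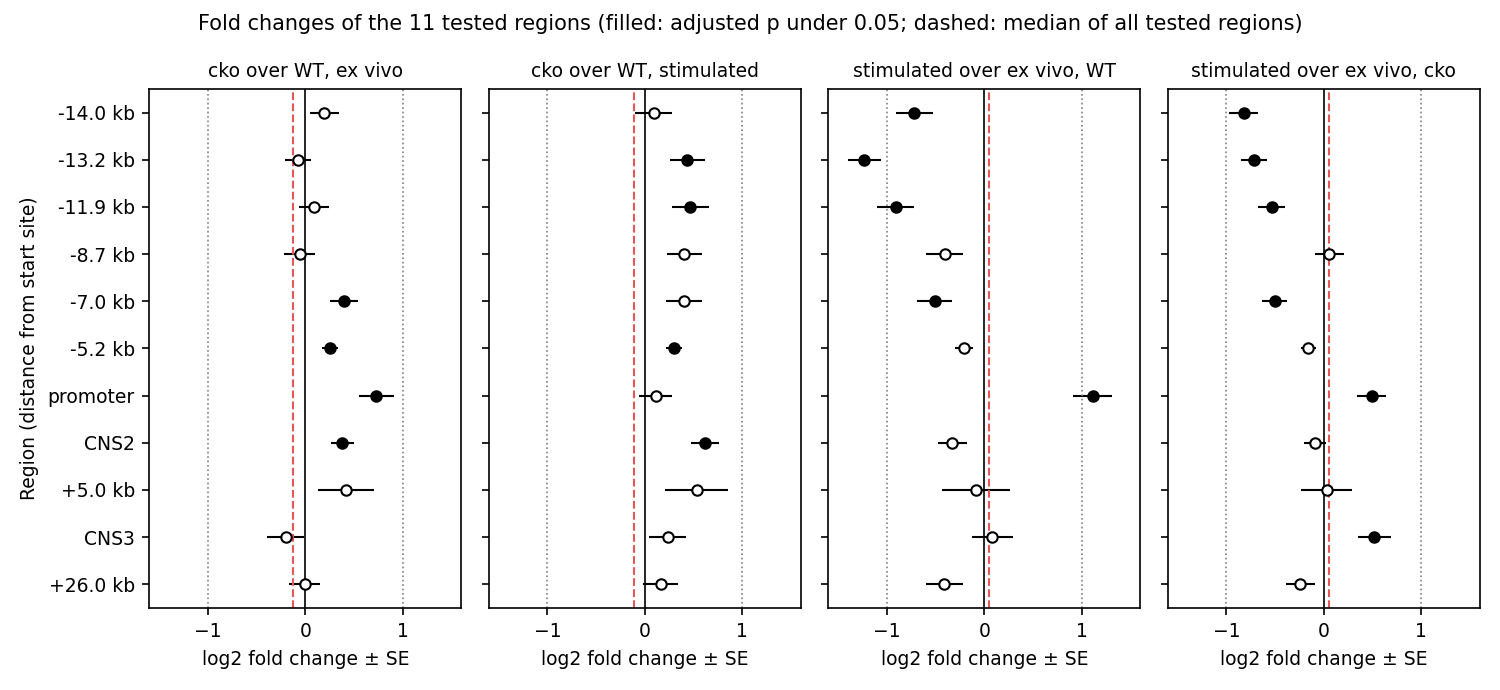
Log2 fold change ± SE of the 11 tested regions, ordered by position, in the 4 comparisons (cko, Ikzf1-cko); filled points had an adjusted p under 0.05, the dashed line is the median of all 69957 tested regions and the dotted lines are the fold threshold. With stimulation of WT Treg the promoter is at 1.11 and the region at -13.2 kb at -1.23, on either side of the dotted lines.

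Counted over the locus, 4 of 11 regions rose ex vivo without Ikaros and 0 fell, where 21.5% of all tested regions passed in either direction. None was called, where 4.63% of all tested regions were called, and 4 had an unadjusted p under 0.05. Among stimulated Treg, 4 regions were higher without Ikaros and 0 lower (background 51%), 0 were called (background 21.3%) and 6 had an unadjusted p under 0.05. With stimulation in WT Treg, 1 region rose and 4 fell (background 47.6%), and 2 were called (background 20%), the promoter upward and the region at -13.2 kb downward. In Ikzf1-cko Treg, 2 rose and 4 fell (background 23.5%), 0 were called (background 3.65%) and 7 had an unadjusted p under 0.05. In the interaction, 0 passed the test (background 7.48%), 0 were called (background 1.98%) and 2 had an unadjusted p under 0.05. DESeq2 called 0 regions in each of these comparisons in which edgeR called 0. In the interaction, however, it gave no adjusted p for the promoter, CNS3 and the regions at -8.7 and 5.0 kb, which could thus not be called. Backgrounds pool both directions. The share called in WT stimulation was 2 of 11, and the shares passing were 36.4% among stimulated Treg and 45.5% in WT stimulation. These were near or under the background, so that without regard to direction the counts do not set the locus apart. Over all tested regions, 35684 passed among stimulated Treg, of which 14242 were higher without Ikaros, as were all 4 of the locus. In WT stimulation 33301 passed and 18815 of them rose, whereas at the locus 1 rose and 4 fell. Shares by direction were not tested. The share with Ikzf1-cko stimulation (54.5%) was above its background of both directions, on 11 regions that share a locus. The share ex vivo (36.4%) was above its background of both directions only with some of the libraries. Without WT ex vivo replicate 1, WT ex vivo replicate 2 or Ikzf1-cko ex vivo replicate 2, only 1 of 11 regions rose (9.09%, where 12.4 to 13.5% of all tested regions passed in either direction). Of all 69957 tested regions, 3710 to 3939 rose in these fits. Without WT ex vivo replicate 3, 2 regions of the locus rose (18.2%, background 21.1%), and 5652 of all tested regions rose. The count among stimulated Treg was 2 without WT stimulated replicate 1 or 3 or Ikzf1-cko stimulated replicate 3 (18.2%, where 42 to 45.4% of all tested regions passed in either direction). Of all 69957 tested regions, 11270 to 12376 were higher without Ikaros in these fits.

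The median log2 fold change of the 11 regions was 0.19 ex vivo, compared with -0.13 over all tested regions, and 0.4 among stimulated Treg, compared with -0.11. It was -0.4 with stimulation in WT Treg (0.043 over all) and -0.16 in Ikzf1-cko Treg (0.058 over all). With chromosome X totals these 4 medians were 0.1, 0.014, -0.035 and -0.081, and the median over all regions moved to -0.23, -0.49, 0.41 and 0.14. Comparisons that share a group share its libraries, and their values are not independent. With that scaling 1 region passed ex vivo (the promoter), 0 passed among stimulated Treg, and in WT stimulation the promoter rose and 2 regions fell.

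**Figure D4:**
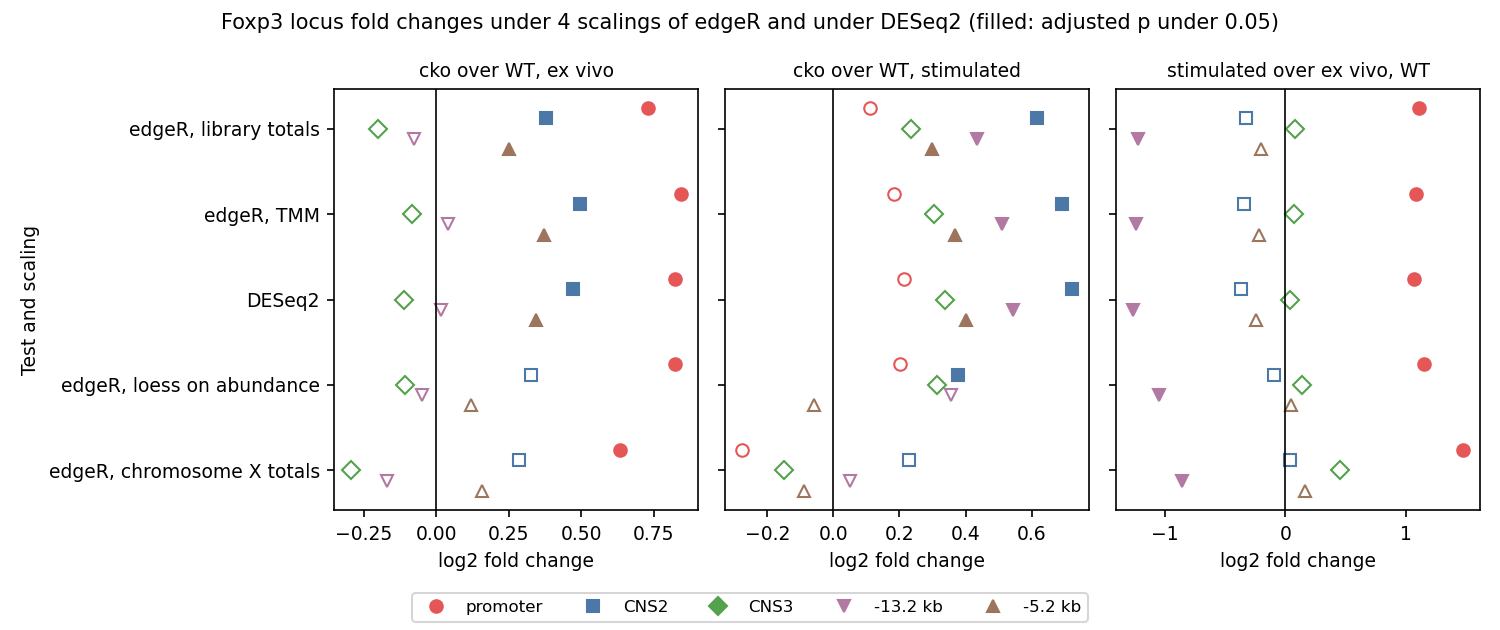
Log2 fold change of the promoter, CNS2, CNS3 and the regions at -13.2 and -5.2 kb in 3 comparisons (cko, Ikzf1-cko) under edgeR with 4 scalings and under DESeq2 (rows); filled symbols had an adjusted p under 0.05. The promoter in ex vivo Treg and in WT stimulation, and the region at -13.2 kb in WT stimulation, stay filled in every row, whereas the symbols of stimulated Treg move left with chromosome X totals.

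The genes of factors that are known to bind or modify the Foxp3 locus were examined at their own start sites. Of 31 such genes, 29 had a tested region within 1 kb of a start. Ex vivo, 11 rose without Ikaros and 0 fell (37.9%, background 21.5%), among them Rel, the NF-kB subunit that binds CNS3 (log2 fold change 0.41, SE 0.077, adjusted p = 0.00028, edgeR), Ets1 (0.4, adjusted p = 0.0031), Smad2 (0.31, adjusted p = 0.003), which relays TGF-beta signals, and Creb1, which binds the cAMP response element (0.22, adjusted p = 0.015). With stimulation the start of Rela, another NF-kB subunit, rose in WT (0.45, adjusted p = 0.0014) and in Ikzf1-cko Treg (0.32, adjusted p = 0.012, edgeR), and so did that of Dnmt1, the maintenance DNA methyltransferase (0.38 and 0.43). The start of Nfatc2 fell in both (-0.27 and -0.24), and so did that of Nr4a3 (-0.44 and -0.41). In all, 5 rose and 9 fell in WT (48.3%, background 47.6%), and 6 rose and 3 fell in Ikzf1-cko Treg (31%, background 23.5%). Stat5a and Stat5b, which act at CNS2, passed the test in no comparison (for Stat5a 0.057 ex vivo and 0.09 stimulated). Among stimulated Treg 18 were higher without Ikaros and 0 lower (62.1%, background 51%). The share in WT stimulation was thus at the background, and the list was not tested against it. The count ex vivo was 14 with TMM, 13 with DESeq2, 7 with loess normalization (background 15.9%) and 7 with chromosome X totals (background 22%). It was also 7 without WT ex vivo replicate 1 or 2 or Ikzf1-cko ex vivo replicate 2 (background 12.4 to 13.5%). The count among stimulated Treg turned to 2 higher and 6 lower with loess normalization, and to 3 higher and 12 lower with chromosome X totals, and the stimulation counts in WT to 13 and 4 and to 18 and 1. None of the 29 was called in any comparison, where 1.98 to 21.3% of all tested regions were called, and all were tested over the same 69957 regions.

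Other Treg genes gave a measure of the same changes elsewhere, to be read against the 21.5% of all tested regions that passed ex vivo, the 51% among stimulated Treg and the 47.6% in WT stimulation. At Ctla4, the inhibitory receptor, 12 of 14 regions were tested, of which 4 rose ex vivo without Ikaros, 5 were higher among stimulated Treg and 7 fell with stimulation in WT Treg, 2 of them called (33.3, 41.7 and 58.3%). At Il2ra, the high-affinity IL-2 receptor chain, 13 of 17 were tested, of which 2 rose ex vivo, 5 were higher among stimulated Treg and 6 fell with WT stimulation (15.4, 38.5 and 46.2%). At Ikzf2, which encodes Helios, 42 of 57 were tested, of which 6 rose ex vivo, 8 were higher among stimulated Treg and 15 fell with WT stimulation (14.3, 19 and 35.7%). The shares at Il2ra and Ikzf2 were thus near or under this background of both directions in all 3 comparisons, and that at Ctla4 among stimulated Treg was under it. Passing regions of these genes all went in the same direction within a comparison. Of all passing regions, 6145 of 15051 rose ex vivo, 14242 of 35684 were higher among stimulated Treg and 18815 of 33301 rose in WT stimulation. Shares by direction were not tested. Of the 3 regions at Ikzf4, which encodes Eos, 0 passed between genotypes, and the 1 region at Tnfrsf18, which encodes GITR, passed only among stimulated Treg (0.42). With stimulation in Ikzf1-cko Treg, 23.5% of all tested regions passed. At Ctla4 it was 6 of 12 (50%) and at Ikzf2 12 of 42 (28.6%), all of them falls. At Il2ra it was 1 of 13 (7.69%), at Ikzf4 2 of 3 (1 rise and 1 fall) and at Tnfrsf18 0 of 1. The share at Ctla4 was thus above the background there, as at Foxp3. At these 5 genes 0 regions rose with stimulation in WT Treg, where the Foxp3 promoter rose. Rises were common there, with 18815 of all 69957 tested regions. The difference between loci was not tested.

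Outside the locus, 4 of the 5 tested regions whose log2 CPM followed that of the 4 tested Foxp3 gene-body regions, summed, most closely over 12 libraries were nearest to Socs3 (Pearson r = 0.954), Zmiz2 (0.946), Cyth2 (0.944) and Sec11c (0.933). These 4 lay over a start site. The Socs3 region, which had a mean of 24.1 FPKM in WT ex vivo, 30.4 in Ikzf1-cko ex vivo, 26.5 in WT stimulated and 33.5 in Ikzf1-cko stimulated Treg, was highest in the last group, as were the rest of these 4. The regions were picked by this correlation, so a shared order of groups comes with the choice. The summed regions did not all move together (r = 0.00364 for the promoter and CNS2, -0.223 for CNS2 and CNS3).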

How the data were processed

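ATAC-seq of sorted Treg was compared in 4 groups of 3 libraries, assigned by their labels. By the methods, the authors used bowtie2 for alignment and MACS2 for peaks in each replicate, took out duplicate reads and blacklisted regions, and kept peaks found in at least 2 replicates. The labels name mm9 as the build. The authors deposited de-duplicated read counts per region without normalization, FPKM (count per length and per library total, with no background normalization) and log2 FPKM, which was not used. A table deposited with the authors' own fold changes and p-values was not used. Of the columns of values per library, 0 lacked a sample.

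Counts were tested in R 4.3.3 by edgeR 4.0.16 with glmQLFTest (library totals, all 12 libraries in 1 model, at least 3.6 CPM in at least 3 libraries, Benjamini-Hochberg). SE was obtained from each log2 fold change and the F of its test, and 95% intervals use a normal approximation. Counting precision follows the totals: 3 reads are 0.2 to 0.62 CPM. The fit was tested on simulated data. Alternatives were TMM, DESeq2 1.42.0, loess, chromosome X totals, limma 3.58.1 on log2(FPKM + 1), no filter, 3.6 CPM in all 12 libraries, compared libraries only, a replicate block, the false discovery rate alone, and each library left out. Genes came from GENCODE vM1 and sequences from the mm9 genome. Motif windows were 300 bases. Named regions are the promoter, CNS regions, the nearest upstream region, the strongest flanking region on each side, any called region, and the 5 regions elsewhere with the highest correlation. The remaining tested regions were named after their values were seen. The members and gene lists were chosen with earlier results of these data known. Of the marker genes and regions examined, a few are not reported here. Normalization to background bins needs reads that are not analysed here.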

Additional observations from a re-analysis of the deposited data

Results flagged for a closer look

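At the start sites of 3 of the 29 genes of Foxp3 regulators, the response to stimulation differed between the genotypes by the interaction term of the edgeR fit. This is 10.3% of the list, near the 7.48% of all tested regions that passed the same test. The start of Gata3 fell with stimulation in WT Treg (41.0 to 27.6 FPKM), whereas in Ikzf1-cko Treg it was at 47.0 and 43.6 FPKM, and the difference between the responses was 0.48 on the log2 scale (adjusted p = 0.046). At Tet1, a DNA demethylase, it was 0.65 (adjusted p = 0.029), with 16.6 and 9.29 FPKM in WT and 14.5 and 12.9 FPKM in Ikzf1-cko Treg. At Tet2 it was 0.35 (adjusted p = 0.034), with 49.8 and 35.9 FPKM in WT and 57.6 and 52.6 FPKM in Ikzf1-cko Treg. Of 21 alternatives, 6 kept Gata3 past the threshold (adjusted p from 0.025 to 0.35), 12 kept Tet1 (from 0.015 to 0.19) and 8 kept Tet2 (from 0.018 to 0.7). All 3 were lost with TMM, with loess normalization, with chromosome X totals, in limma, with a replicate block within genotype, and without any 1 of WT ex vivo replicate 3, WT stimulated replicate 3 and Ikzf1-cko stimulated replicates 2 and 3. The WT stimulated libraries also held the smallest share of reads in strong regions, and the part of this in the result was not tested.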

How the results depend on the processing

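Leaving out 1 library at a time, 0 regions of the locus were called in the 4 comparisons with 0, and 2 to 3 in WT stimulation (3 without WT stimulated replicate 2, with the region at -11.9 kb added). With the false discovery rate alone it was 4 ex vivo, 4 among stimulated Treg, 5 in WT stimulation and 6 in Ikzf1-cko stimulation. In WT stimulation it was 1 with chromosome X totals (the promoter) and 1 with 3.6 CPM in all 12 libraries, where the promoter was not tested. With loess it was 1 among stimulated Treg. Of the log2 fold changes of the 6 named regions, 580 alternative values kept direction and side of the threshold, 28 lost and 5 gained the threshold, and 24 turned in sign, of which 0 passed the threshold in both fits. With chromosome X totals the turned values were -0.28 (promoter), -0.15 (CNS3), -0.088 (-5.2 kb) and -0.22 (26.0 kb) among stimulated Treg, 0.041 (CNS2) and 0.16 (-5.2 kb) in WT stimulation, and -0.054 (CNS2), -0.24 (-5.2 kb) and -0.12 (26.0 kb) in the interaction. With loess they were -0.058, 0.044 and -0.18 at -5.2 kb (stimulated, WT stimulation, interaction) and 0.026 at 26.0 kb ex vivo. With TMM they were -0.0011 at -5.2 kb (interaction), 0.11 at 26.0 kb and 0.042 at -13.2 kb ex vivo, and with DESeq2 0.083 at 26.0 kb and 0.016 at -13.2 kb ex vivo. Leaving out single libraries, CNS3 in WT stimulation ranged from -0.0065 to 0.22, and the region at 26.0 kb from -0.077 to 0.087 ex vivo, from -0.073 to 0.27 among stimulated Treg and from -0.065 to 0.28 in the interaction. Over all deposited regions, 0.68% of windows held TGACGTCA, 0.271% TTCCGGAA and 11.0% TGACTCA. The causes were not tested.

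By the methods, sorted Treg were divided into a stimulated and an unstimulated part, so that libraries of a genotype may share a sort. Replicate numbers are shared between groups, but the deviations of same-numbered libraries did not go together (r from -0.366 to 0.0788 between the Ikzf1-cko groups and from -0.03 to 0.208 between the WT groups). With 3 libraries per group, these values cannot decide whether the numbers pair the libraries. With a replicate block the called regions were 0 ex vivo, 0 among stimulated Treg, 2 in WT stimulation, 0 in Ikzf1-cko stimulation and 0 in the interaction, as without it, and a block within each genotype, added after seeing the data, gave 2, 0 and 0 in the last 3. Low counts limit the weak regions: WT ex vivo libraries held 17 to 32 reads at the promoter, and WT stimulated libraries 8 to 20 at 5.0 kb.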
